A study of Mus musculus with 96 samples.

Results

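The 10 genes described here are the transcription factor p53 (gene symbol Trp53) and 9 genes of its feedback circuit, namely Mdm2, Mdm4, Ppm1d, Ccng1, Trp53inp1, Zmat3, Gadd45a, Gadd45b and Gadd45g. They were taken by gene symbol from a deposited expression table of 15895 genes, and all 10 were listed in it. Fibroblasts from embryos of CF-1 mice at embryonic day 13, used as primary cultures, were held for 36 h in medium with 0.5% fetal calf serum and then given 20% serum at 0 h. Polyadenylated RNA was sequenced once per time in 2 time courses named Cycle 1 (64 libraries, 63 of them used here, -1 to 38 h) and Cycle 2 (32 libraries, -1 to 27 h). The starved group was made of the 4 libraries at -1 and 0 h, and every cell in the study, starved or fed, was an untransfected embryonic fibroblast without any drug or allele named in the labels. Whether the 2 Cycles came from separate embryos or cell preparations was not stated, so the p-values measure the spread between these time courses, which may be partly technical.

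In unstressed cells p53 is made and destroyed continuously, because its target Mdm2 encodes the ubiquitin ligase that marks p53 for the proteasome. Mdm4 blocks the activation domain of p53, the phosphatase Ppm1d (Wip1) and cyclin G1 (Ccng1) damp the response after damage, and Trp53inp1 strengthens it. Zmat3 encodes an RNA-binding zinc finger protein that is a direct p53 target, and the 3 Gadd45 proteins are small stress sensors that bind the stress kinase Map3k4 and the Cdk1 and cyclin B1 kinase. Several of the genes also answer to serum and other growth signals without p53, and RNA levels say nothing about the amount or activity of the p53 protein.

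The values are normalized signal, that is reads on exons scaled so that every library has the same total. A level can be compared between libraries of 1 gene, but between genes only after division by length. The depth recovered from the steps between values was 4352450 to 12551503 reads on listed genes per library, with a median of 9374770. The 10 fibroblast markers examined, among them Col1a2 and Vim, were all listed and summed to 398711 to 554400 in the starved and 188661 to 521704 in the fed libraries. Leukocyte markers summed to 524 to 4991 over all libraries (7 of 7 listed), endothelial markers to 50.9 to 291 (6 of 6), epithelial markers to at most 652 (6 of 6), muscle markers to 373 to 2542 (4 of 5) and neural markers, led by Nes, to 778 to 4973 (5 of 5). Of the erythroid markers 1 of 4 was listed and stayed at or below 6.24. The library at 24.5 h of Cycle 1 stood apart, with a median distance of 0.41 on the log2 scale from the mean of its neighbours in time. This was the largest among the fed libraries that had a fed library of the same Cycle before and after them. The starved libraries and the first and last fed library of each Cycle were not scored. The 24.5 h library entered no test because Cycle 2 has no such hour. The libraries at 24, 25 and 26 h of Cycle 1, with distances of 0.26, 0.23 and 0.23, did enter the tests. The 24.5 h library was a neighbour of those at 24 and 25 h, but not of that at 26 h.

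Per kilobase of the longest coding transcript, Gadd45g had the highest mean normalized signal over the 95 libraries (1721), followed by Ccng1 (681), Trp53 (671), Gadd45b (590.4) and Mdm2 (386). Gadd45a (125), Zmat3 (110), Trp53inp1 (57.6), Ppm1d (56.3) and Mdm4 (48.4) lay lower. In the starved cells alone the order differed, with Ccng1 (635), Gadd45g (574), Gadd45b (494), Trp53 (487) and Gadd45a (447) at the top and Ppm1d (54.5) at the bottom. Transcript lengths came from the GENCODE annotation of NCBIM37, the assembly also called mm9, to which the authors aligned. Only Gadd45a shared exon sequence with a gene on the other strand, 337 bases or 19.1% of its exon bases with the long noncoding RNA E230016M11Rik. The authors counted both strands together, so these 2 transcripts cannot be told apart there. The mean level of E230016M11Rik was 33.8 against 153 for Gadd45a.

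Sequences that p53 could bind were searched within 2000 bases of the annotated start of each gene in NCBIM37. The p53 consensus consists of 2 adjoining decamers, each with purines, then C, A or T, A or T and G, then pyrimidines, and it reads alike on both strands. No spacer, no mismatch in the 4 core letters and at most 1 mismatch outside the cores were allowed. Of the 10 genes 2 held a match, against 0.51% of 22367 protein-coding genes. Both matches lay in introns, the one in Zmat3 at chr3:32263253-32263272 (minus strand, 1328 bases past the start, 0 mismatches) and the one in Ccng1 at chr11:40568438-40568457 (minus strand, 356 bases past the start, 1 mismatch). They are shown on the strand of the gene with the core letters in capitals, because they are the only matches of these 10 genes under this rule.
Zmat3: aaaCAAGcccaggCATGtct
Ccng1: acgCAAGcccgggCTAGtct
A match is a description of letters and not a binding site. The other 8 genes had no match under this rule, which says nothing about p53 there.

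The 3 Gadd45 genes moved differently after serum, as described further on, and the 250 bases before their RefSeq starts are therefore printed (assembly GRCm38.p6, which differs from that of the expression table). RefSeq held promoters for 8 of the 10 genes, and Trp53inp1 and Zmat3 were not among them. The motifs searched on both strands were CRE (TGACGTCA), AP-1 (TGACTCA or TGAGTCA), the TATA box (TATAAA), the CCAAT box (CCAAT), the CArG box and the NF-kB site, and none of the matches shown overlaps another. Capitals mark TATAAA and CCAAT, which occurred in 12.4% and 33.8% of the 32851 promoters in the table.
Gadd45a, chr6:67037408-67037657, minus strand: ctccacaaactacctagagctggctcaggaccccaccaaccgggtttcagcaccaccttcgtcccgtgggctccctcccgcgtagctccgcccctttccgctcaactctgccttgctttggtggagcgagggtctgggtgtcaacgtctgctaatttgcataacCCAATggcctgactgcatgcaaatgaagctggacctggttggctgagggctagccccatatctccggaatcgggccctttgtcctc
Gadd45b, chr10:80929841-80930090, plus strand: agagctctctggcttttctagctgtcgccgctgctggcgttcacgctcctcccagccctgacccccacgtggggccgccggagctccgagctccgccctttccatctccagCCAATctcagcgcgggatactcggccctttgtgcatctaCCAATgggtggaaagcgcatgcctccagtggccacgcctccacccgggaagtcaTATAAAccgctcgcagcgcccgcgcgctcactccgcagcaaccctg
Gadd45g, chr13:51846425-51846674, plus strand: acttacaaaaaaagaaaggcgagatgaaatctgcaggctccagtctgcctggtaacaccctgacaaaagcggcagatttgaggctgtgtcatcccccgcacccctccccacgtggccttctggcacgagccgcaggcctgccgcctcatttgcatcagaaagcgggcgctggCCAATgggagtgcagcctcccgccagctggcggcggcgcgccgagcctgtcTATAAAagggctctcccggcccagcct
Gadd45b and Gadd45g each held TATAAA, 46 and 27 bases before the start, and Gadd45a did not. All 3 held at least 1 CCAAT. Among the other members with a promoter, CRE occurred in Ppm1d (1.55% of all promoters), AP-1 in Mdm4 (4.46%), TATAAA in Trp53 and CCAAT in Trp53, Mdm2, Ccng1 and Ppm1d. The CArG box and the NF-kB site occurred in none of them (1.47% and 3.90% of all promoters).

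Genes were compared with the starved libraries in 2 ways, both with limma on log2(value + 1) over all 15895 genes. The test by hour asked whether a gene differed at any of the 29 hours sampled in both Cycles, and a gene was called at a Benjamini-Hochberg adjusted p under 0.05 if its log2 change also exceeded 1 in size at 1 or more of them. By that rule 46.3% of all genes were called, and 5 of the 10 genes were, namely Ccng1, Trp53inp1, Gadd45a, Gadd45b and Gadd45g. The window test averaged the shared hours of each Cycle into 8 windows, so that each window had n = 2, and called a gene at an adjusted p under 0.05. Over the 80 combinations of gene and window there were 10 rises and 21 falls, against 10.8% rises and 20.1% falls over the combinations of all genes. The calls lay in 8 of the 10 genes, where 66.9% of all genes were called in at least 1 window, and in this fit no gene had calls in both directions. Trp53, Mdm2, Gadd45b and Gadd45g rose in at least 1 window, Mdm4, Trp53inp1, Zmat3 and Gadd45a fell, and Ppm1d and Ccng1 were not called in any.

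By window, 2 of the 10 genes rose and 0 fell at 1 to 1.5 h, where 3.35% of all genes rose and 7.55% fell. At 2 to 3 h 1 rose and 4 fell (9.5% and 27.4% of all genes), and at 4 to 6 h 0 rose and 3 fell (12.1% and 25.2%). The counts were 1 rise and 3 falls at 7 to 10 h (11.8% and 19.8%), 2 and 3 at 11 to 14 h (12% and 18.7%), and 2 and 3 at 15 to 18 h (12% and 18.6%). At 19 to 23 h they were 1 and 3 (13.1% and 21.3%), and at 24 to 27 h 1 and 2 (12.3% and 22.7%). In most windows these counts lay near the shares of all genes. The median log2 change of the 10 genes ran from -0.28 at 2 to 3 h to 0.32 at 19 to 23 h, against -0.32 and -0.14 for all genes. Rescaling the libraries with TMM, which sets aside the genes that change most, raised the log2 change of a gene by a median of 0.05 to 0.28 over all genes, most at 2 to 3 h, where the median change of all genes was then -0.06.

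**Figure D1:**
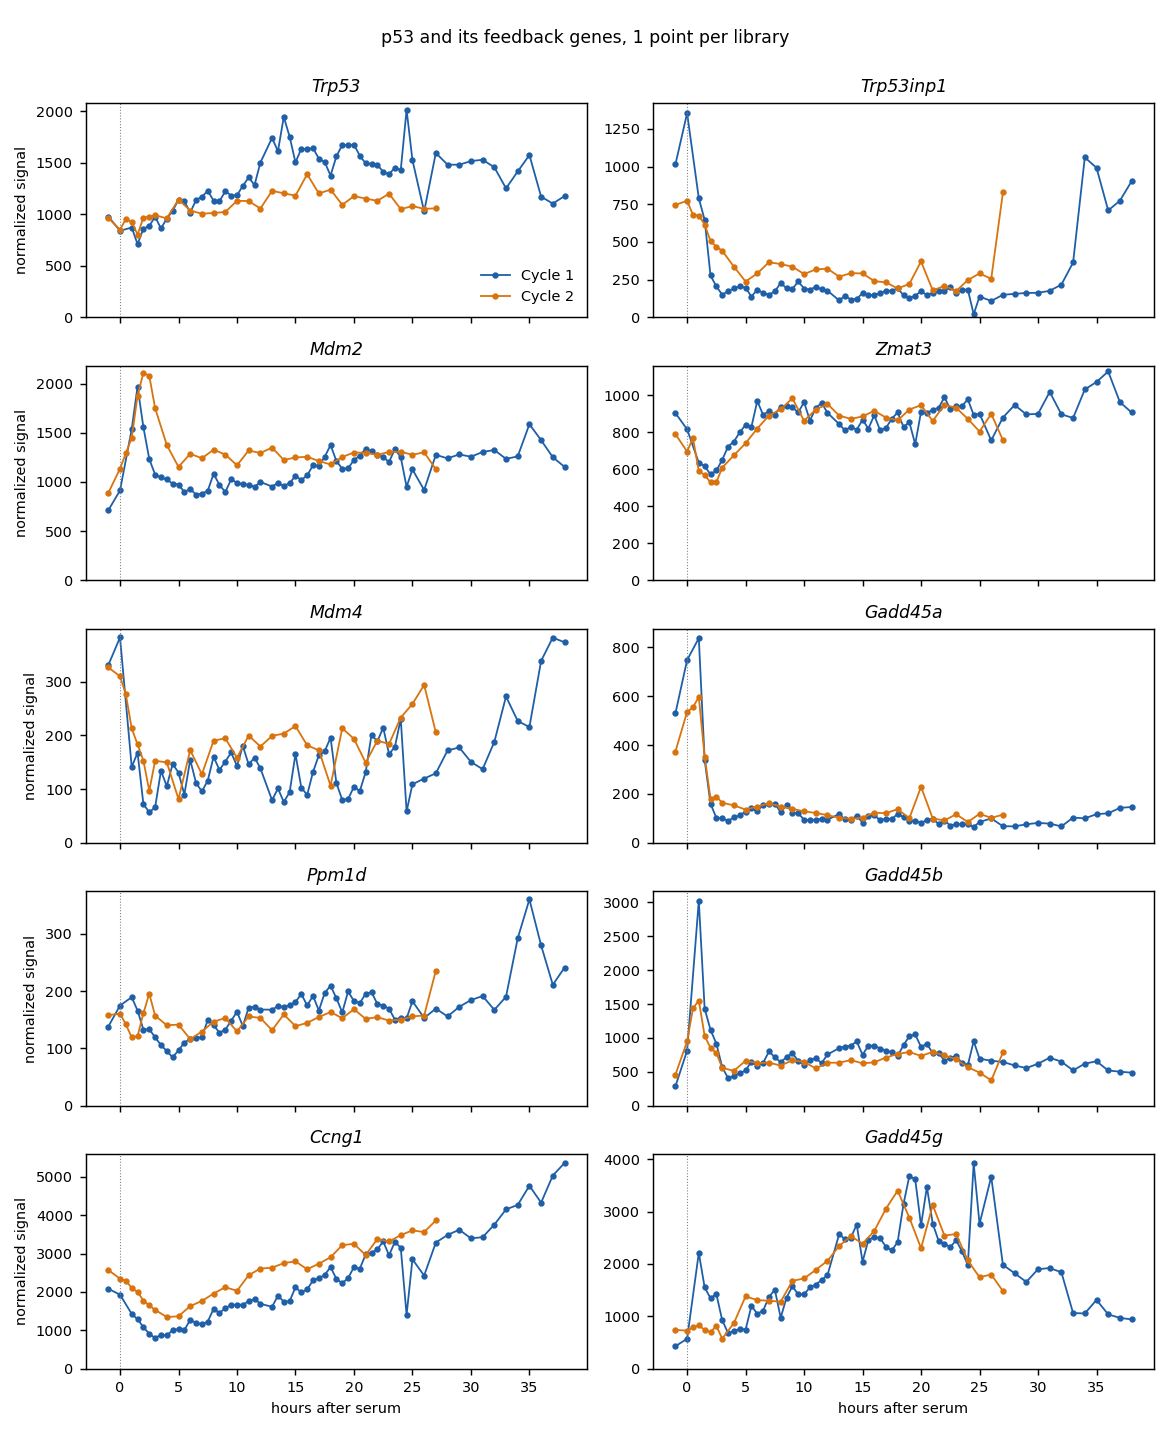
Normalized signal (vertical axes, linear from 0) of the 10 genes against hours after serum (horizontal axis), 1 point per library, Cycle 1 in blue and Cycle 2 in orange. Mdm2 peaked at 1.5 h in Cycle 1 and 2 h in Cycle 2, Gadd45a and Trp53inp1 dropped within the opening hours, Gadd45g climbed to high values near 18 to 19 h, and Trp53inp1 returned from 34 h in Cycle 1 and at 27 h in Cycle 2.

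Trp53 (chr11:69393861-69405375, plus strand), which encodes p53 itself, rose late and modestly. The starved libraries held 980.0 and 842 in Cycle 1 and 965 and 851 in Cycle 2, with the lower value at 0 h in both. Both Cycles had their lowest fed value at 1.5 h (712 and 804) and then climbed. Between 11 and 14 h the 6 libraries of Cycle 1 lay between 1286 and 1947 (median 1558) and the 4 of Cycle 2 at 1130, 1058, 1229 and 1205, all above every starved library. The change was 0.59 ± 0.20 on the log2 scale (n = 2, adjusted p = 0.0464) at 11 to 14 h and 0.60 ± 0.20 (adjusted p = 0.0444) at 15 to 18 h. Here and below the value after ± is the SE, which for windows is pooled over all windows of the gene. The change of Trp53 was larger in Cycle 1 (0.84 and 0.73) than in Cycle 2 (0.35 and 0.47), a difference that was not tested. At 19 to 23 h the change was 0.55 ± 0.20 (adjusted p = 0.0546, and 0.0248 with the Cycle as a block). That window was also called under TMM (0.62, adjusted p = 0.0298) and with edgeR (0.72, adjusted p = 0.0139), which called 24 to 27 h too (0.63, adjusted p = 0.0247). In the test by hour Trp53 had an adjusted p of 0.00923, but its largest change, 0.76 at 14 h, stayed under the 2-fold limit.

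Both calls of Trp53 were near the threshold. The call at 11 to 14 h was lost, with adjusted p-values of up to 0.0694, without the libraries at 0, 1, 14 or 26 h of Cycle 1 or those at 0, 1.5, 13 or 14 h of Cycle 2. The call at 15 to 18 h was lost (up to 0.0665) without those at 0, 1, 11 or 26 h of Cycle 1 or 0, 1.5 or 16 h of Cycle 2. Against the -1 h libraries alone the changes were 0.49 and 0.50 (adjusted p = 0.0887 and 0.0842), with medians of the hours the adjusted p-values were 0.0554 and 0.0594, while with edgeR on the recovered reads they were 0.76 and 0.74 (adjusted p = 0.0119 and 0.0138). The 3 genes whose course was most like that of Trp53 over the 95 libraries, among 10485 genes with a mean value of at least 50, were Rnasek, Sf3a2 and Fen1 (Pearson r = 0.927, 0.924 and 0.923). These correlations describe libraries that share 2 starved baselines and a scale, so they carry no test.

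Mdm2 (chr10:117125944-117147814, minus strand), which encodes the ubiquitin ligase that limits p53, rose within the opening hours. It stood at 711 and 913 in the starved libraries of Cycle 1 and at 887 and 1134 in those of Cycle 2. In Cycle 1 it reached 1536 at 1 h, 1969 at 1.5 h and 1556 at 2 h, and was back at 1074 by 3 h. In Cycle 2 it passed 1291 at 0.5 h, 1448 at 1 h and 1877 at 1.5 h, peaked at 2109 at 2 h and stood at 1750 at 3 h. The peak was thus 2.43-fold above the starved mean in Cycle 1 and 2.09-fold in Cycle 2, and every library from 1 to 2.5 h lay above all 4 starved ones. The window test gave 0.91 ± 0.23 at 1 to 1.5 h (adjusted p = 0.0287) and 0.82 ± 0.23 at 2 to 3 h (adjusted p = 0.0179). Later windows lay between 0.29 and 0.48 without a call. The change of 0.48 at 19 to 23 h had an adjusted p of 0.0356 with the Cycle as a block (0.129 without it), and against the -1 h libraries alone it was 0.66 (adjusted p = 0.0494).

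The early rise of Mdm2 depended on the choice of baseline, and both 0 h libraries were 1.28-fold above the -1 h library of their Cycle. Against the 0 h libraries alone the changes were 0.73 (adjusted p = 0.0799) and 0.64 (adjusted p = 0.0531), and the call at 1 to 1.5 h was also lost, with adjusted p-values of up to 0.0651, without either 1.5 h library or the -1 h library of Cycle 2. Under TMM both changes were larger, 1.08 and 1.10. In the test by hour Mdm2 had an adjusted p of 0.0601 with its largest change, 1.10, at 1.5 h. The genes most like Mdm2 were Slc19a2, a thiamine transporter, Rbm15 and Cyp1b1 (Pearson r = 0.774, 0.766 and 0.729).

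Mdm4 (chr1:134886422-134921943, minus strand), the relative of Mdm2 that covers the activation domain of p53, went the opposite way. Starved values were 331 and 382 in Cycle 1 and 326 and 309.8 in Cycle 2. At 2, 2.5 and 3 h they were 72.1, 57.1 and 66.2 in Cycle 1 and 153, 97.0 and 153 in Cycle 2, and the lowest of these rested on 68 reads. The fall at 2 to 3 h was -1.85 ± 0.38 (adjusted p = 0.00295), with -2.44 in Cycle 1 and -1.27 in Cycle 2. Falls of -1.38, -1.16, -1.22, -1.11 and -1.12 followed in the windows from 4 to 6 h to 19 to 23 h, with adjusted p-values between 0.0148 and 0.0454. At 24 to 27 h the change was -0.85 (adjusted p = 0.1, and 0.0246 with the Cycle as a block), and at 1 to 1.5 h it was -0.94 (0.154, and 0.0363). No fed library of either Cycle up to 27 h exceeded the starved mean of its Cycle, the highest being 231 at 24 h in Cycle 1 and 294 at 26 h in Cycle 2.

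The falls of Mdm4 at 2 to 3 h and 4 to 6 h passed the threshold with every single library left out, under TMM (-1.58 and -1.20) and with edgeR (-1.48 and -1.19). Those at 7 to 10 h and 15 to 18 h did not pass under TMM (adjusted p = 0.054 and 0.0536) or edgeR (0.0656 and 0.0634), nor that at 19 to 23 h with edgeR (0.0641). With the median in place of the mean of the hours none of the 4 from 7 to 10 h on passed (0.0513 to 0.103). The call at 15 to 18 h was lost (up to 0.0688) without the libraries at 0, 1.5, 2, 11, 12, 16, 22 or 24 h of Cycle 1 or 2.5 or 18 h of Cycle 2, and that at 19 to 23 h (up to 0.0518) without the libraries at 24 h of Cycle 1 or 2.5 h of Cycle 2.

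Ppm1d (chr11:85124746-85160568, plus strand), the phosphatase that removes activating phosphates from p53 and its kinases, changed little up to 27 h. Starved values were 138 and 175 in Cycle 1 and 158 and 161 in Cycle 2. Its lowest fed values were 84.6 at 4.5 h in Cycle 1 and 116 at 6 h in Cycle 2. At 4 to 6 h the change was -0.43 ± 0.21 (adjusted p = 0.128), and the other windows lay between -0.18 and 0.09 with adjusted p-values of at least 0.539. The 2 Cycles went different ways at 2.5 h, where Cycle 2 stood at 196 and Cycle 1 at 134.

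Ccng1 (chr11:40562054-40568813, minus strand), a cyclin that recruits a phosphatase to Mdm2, traced a valley. From 2082 and 1927 in Cycle 1 and 2573 and 2343 in Cycle 2 it sank to 796 at 3 h and 1343 at 4 h. It passed its starved mean again by 15 h in Cycle 1 (2124) and by 12 h in Cycle 2 (2611), and it stood at 3287 and 3865 at 27 h. In the test by hour it was called with -1.04 ± 0.29 at 4 h (adjusted p = 3.9e-05). No window was called in the fit without the block, the deepest changes being -0.85 ± 0.32 at 2 to 3 h (adjusted p = 0.0609) and -0.86 ± 0.32 at 4 to 6 h (0.0578). With the Cycle as a block these had adjusted p-values of 0.00142 and 0.00147, and the rises of 0.43 at 19 to 23 h and 0.55 at 24 to 27 h had 0.0448 and 0.0158. Both of these falls lay near the threshold. At 2 to 3 h the fall was called with a minimum mean value of 20 (adjusted p = 0.0489), against the -1 h libraries alone (-0.91, adjusted p = 0.0458) and with the trend and robust options of limma (0.0457). At 4 to 6 h it was called under the same settings (0.0487, 0.0448 and 0.0435), with a pseudocount of 10 (0.0488) and with medians of the hours (-0.90, adjusted p = 0.0451). Without the 2 h library of Cycle 2 the change at 2 to 3 h passed (0.0493), and without either 6 h library that at 4 to 6 h did (as low as 0.0455). The starved mean of Ccng1 differed between the Cycles, 2005 in Cycle 1 and 2458 in Cycle 2.

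Trp53inp1 (chr4:11083578-11101526, plus strand), whose product helps the kinases that switch p53 to its death program, fell deeply. Its values are averages over transcripts. Starved libraries held 1014 and 1354 in Cycle 1 and 745 and 773 in Cycle 2. In Cycle 1 the level was 789 at 1 h, 278 at 2 h and 150.5 at 3 h, whereas in Cycle 2 it descended more slowly, through 675 at 1 h, 506 at 2 h and 442 at 3 h to 238 at 5 h. All libraries from 2 to 26 h of both Cycles lay below all 4 starved ones, the highest of them at 506. The changes ran from -1.60 ± 0.53 at 2 to 3 h (adjusted p = 0.034) to -2.32 ± 0.53 at 19 to 23 h (adjusted p = 0.00774), and 7 of the 8 windows were called. They were larger in Cycle 1 (-2.51 to -3.03) than in Cycle 2 (-0.69 to -1.77) in each of these windows, which was not tested as a difference. In the 27 h library of Cycle 2, described further on, Trp53inp1 was at 828, above all hours before it in that Cycle. Without that library the change at 24 to 27 h was -2.27 (adjusted p = 0.00563) in place of -2.07. The fall at 2 to 3 h was not called under TMM (-1.32, adjusted p = 0.0785) or by edgeR (-1.25, adjusted p = 0.0879), and the later ones were called under both.

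Zmat3 (chr3:32233718-32264600, minus strand), the RNA-binding target of p53, dipped briefly. Starved values were 905 and 817 in Cycle 1 and 791 and 696 in Cycle 2, and the lowest fed values were 572 and 529, both at 2 h. From 5 h on Zmat3 lay within or above the range of the 4 starved libraries, with highest values up to 27 h of 991 at 22 h in Cycle 1 and 985 at 9 h in Cycle 2. The change at 2 to 3 h was -0.46 ± 0.13 (adjusted p = 0.0138) and that at 1 to 1.5 h was -0.40 ± 0.13 (0.0647, and 0.0296 with the Cycle as a block). Without the 0 h library of Cycle 2 the change at 1 to 1.5 h also passed (0.0317), and it did so under the alternatives of pseudocount 10, the minimum mean of 20, the -1 h baseline, the limma options and the adjustment over all windows (0.0248 to 0.0392). The dip was little more than the shift of the whole table, whose median at 2 to 3 h was -0.32. Under TMM it was -0.18 (adjusted p = 0.308) and with edgeR -0.15 (adjusted p = 0.307). With edgeR the later changes were called as rises at 7 to 10 h (0.39, adjusted p = 0.0144), 11 to 14 h (0.30, adjusted p = 0.0467) and 19 to 23 h (0.36, adjusted p = 0.0192). In the test by hour Zmat3 had an adjusted p of 4.8e-08, with -0.54 ± 0.10 at 2 h, under the 2-fold limit.

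**Figure D2:**
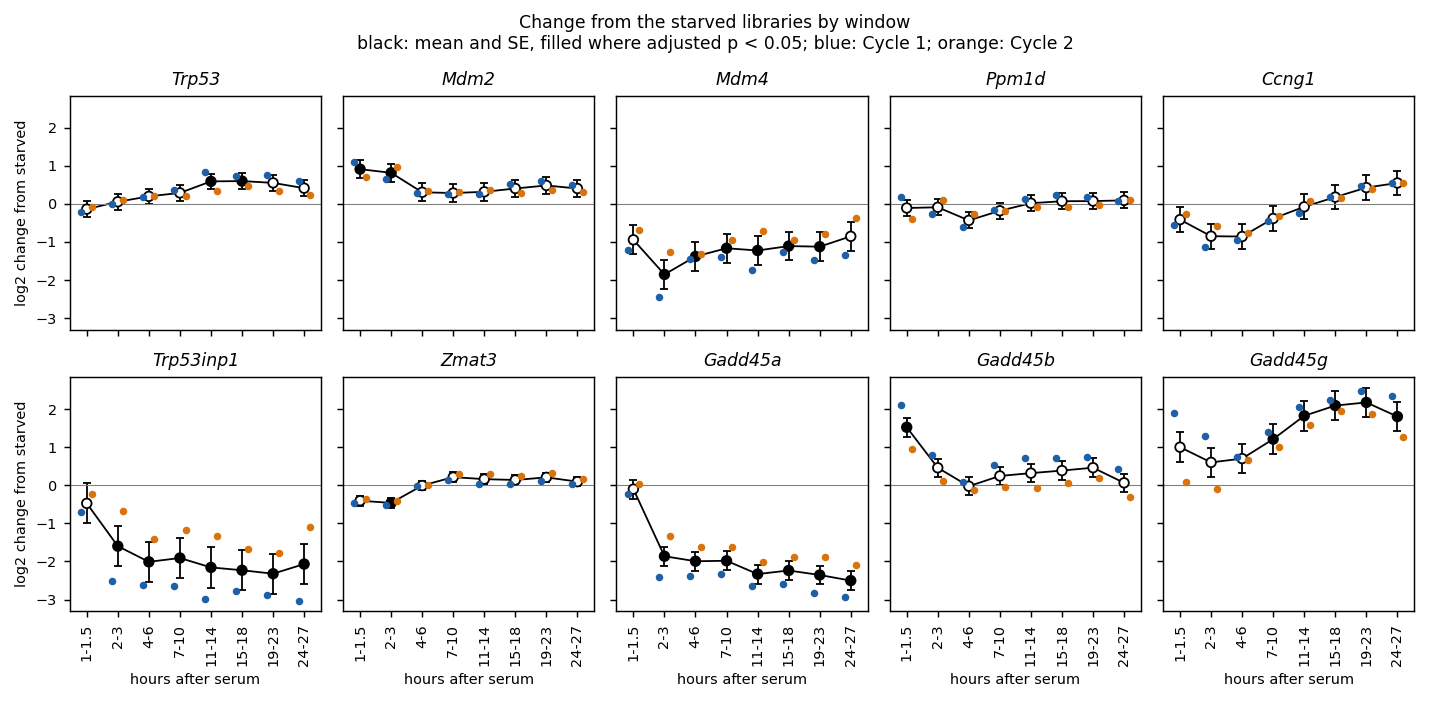
Log2 change from the starved libraries (vertical axis) in 8 windows of hours after serum (horizontal axis) for each of the 10 genes. Black points are the means of the 2 Cycles with SE, filled where the adjusted p is under 0.05, and blue and orange points are Cycle 1 and Cycle 2. Gadd45a and Trp53inp1 are filled in 7 windows, Mdm4 in 6, Gadd45g in 5, Trp53 and Mdm2 in 2, Zmat3 and Gadd45b in 1, and Ppm1d and Ccng1 in none.

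The Gadd45 family split 3 ways. Gadd45a (chr6:66985090-66987451, minus strand), the classic p53-induced member, first stayed high and then collapsed. It stood at 529 and 747 in the starved libraries of Cycle 1 and at 373 and 536 in those of Cycle 2, reached its highest value at 1 h in both (836 and 596, each 1.31-fold above the starved mean) and was at 339 and 352 at 1.5 h. By 2 h it was at 160.4 and 181, and no library from 2 to 27 h exceeded 229. The change was -1.86 ± 0.25 at 2 to 3 h (adjusted p = 0.000274), -2.33 ± 0.25 at 11 to 14 h (0.000162) and -2.50 ± 0.25 at 24 to 27 h (9.01e-05), and all 7 windows from 2 to 3 h on were called. These calls were made under every alternative that kept both Cycles, each single library left out included. The window at 1 to 1.5 h, which joins the peak at 1 h with the drop at 1.5 h, gave -0.10 ± 0.25 (adjusted p = 0.9).

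Gadd45b (chr10:80392836-80394949, plus strand), an early response gene in many cells, rose at once. Its starved values already differed, from 286 at -1 h to 812 at 0 h in Cycle 1 and from 457 to 948 in Cycle 2, that is 2.84-fold and 2.08-fold within the starved group. At 1 h it reached 3023 in Cycle 1 and 1552 in Cycle 2, where the 0.5 h library already held 1436, and Gadd45b was the only one of the 10 genes above 1.5-fold at that time (4.72% of all genes). By 3 h it was at 569 and 558. The rise at 1 to 1.5 h was 1.52 ± 0.24 (adjusted p = 0.00225), with 2.11 in Cycle 1 and 0.94 in Cycle 2, and it was called without any single library, under TMM (1.69) and with edgeR (1.54). The size of this rise depends on the baseline, because the starved mean joins the unlike values at -1 and 0 h. Later windows lay between -0.02 and 0.46 without a call, but calls there changed with the baseline and the scaling. Against the 0 h libraries alone the change at 4 to 6 h was called as a fall (-0.66, adjusted p = 0.0419). Under TMM the change at 2 to 3 h was called as a rise (0.74, adjusted p = 0.0423). Against the -1 h libraries alone, changes of 0.88 to 1.10 were called in the windows at 2 to 3, 7 to 10, 11 to 14, 15 to 18 and 19 to 23 h, and without the 0 h library of Cycle 2 those at 2 to 3, 15 to 18 and 19 to 23 h were called (adjusted p = 0.0258, 0.0481 and 0.0291). Of all genes 2.04% were above 1.5-fold at 0 h against -1 h in both Cycles, and Gadd45b was the only one of the 10 to be so, with Gadd45a at 1.41-fold and 1.44-fold.

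Gadd45g (chr13:51942047-51943837, plus strand) had its highest values of the shared hours at 18 to 19 h and was lower again by 27 h (1983 in Cycle 1 and 1481 in Cycle 2). Starved values were 427 and 569.9 in Cycle 1 and 739 and 724 in Cycle 2. The Cycles differed in the opening hours, where Cycle 1 jumped to 2213 at 1 h and Cycle 2 stood at 827, so that the window at 1 to 1.5 h gave 1.00 ± 0.39 (adjusted p = 0.142) from 1.91 and 0.09. All shared hours from 5 h on were above all 4 starved libraries. The highest values of the shared hours were 3680 at 19 h in Cycle 1 and 3402 at 18 h in Cycle 2. The change was 1.21 ± 0.39 at 7 to 10 h (adjusted p = 0.0349), 1.83 ± 0.39 at 11 to 14 h (0.00627), 2.09 ± 0.39 at 15 to 18 h (0.00325), 2.18 ± 0.39 at 19 to 23 h (0.00246) and 1.81 ± 0.39 at 24 to 27 h (0.00572). Without the 1.5 h library of Cycle 1 the call at 7 to 10 h was lost (adjusted p = 0.0521). The directions of the 3 Gadd45 genes in their called windows were the same under TMM.

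Pairs of the 10 genes followed each other to different degrees over the 95 libraries. On the log2 change from the starved mean of the same Cycle, Pearson r was 0.76 between Trp53inp1 and Gadd45a, 0.75 between Trp53 and Gadd45g, 0.73 between Ppm1d and Ccng1, and 0.71 between Mdm4 and Trp53inp1. Within the Cycles these were 0.64 and 0.78, 0.70 and 0.84, 0.79 and 0.38, and 0.71 and 0.33, in the same order. The latter 2 pairs had the higher value in Cycle 1. The hours differ, however, because Cycle 1 runs to 38 h and includes its 24.5 h library, while Cycle 2 ends at 27 h. The Cycles were not compared over shared hours alone. Other pairs ran opposite ways. Over the 95 libraries the lowest r was -0.71 between Trp53inp1 and Gadd45g, followed by -0.70 between Trp53 and Gadd45a. Next came -0.65 between Trp53 and Trp53inp1 and -0.65 between Gadd45a and Gadd45g. The libraries share a time axis, a baseline and a scale, and the values are given without a test.

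A further contrast set the late against the early response. At 24 to 27 h against 2 to 3 h, 3 of the 10 genes were higher and 0 lower, where 24.3% and 14.9% of all genes were. Ccng1 was higher by 1.40 ± 0.32 (adjusted p = 0.00641), with the 3 libraries of Cycle 1 going from 909 (median) at 2 to 3 h to 2426 to 3287 at 24, 25, 26 and 27 h, and those of Cycle 2 from 1646 to 3482 to 3865. Gadd45g was higher by 1.20 ± 0.39 (adjusted p = 0.0301) and Zmat3 by 0.56 ± 0.13 (adjusted p = 0.00552). Mdm4 recovered by 1.00 ± 0.38 without a call (adjusted p = 0.0548), and Gadd45a was lower by 0.64 ± 0.25 (adjusted p = 0.0606). With the Cycle as a block Mdm4 (0.0107) and Gadd45a (0.0364) were called too. Both were also called with the minimum mean of 20 (0.0436 and 0.0471), Gadd45a under TMM and with edgeR (0.0231 and 0.0246), and Mdm4 with a pseudocount of 10 and the limma options (0.0491 and 0.0437). Gadd45g was not called under TMM (1.02, adjusted p = 0.0679) or with medians of the hours (1.07, 0.0627). Left out singly, the libraries at 13, 14, 25, 26 or 27 h of Cycle 1 and 2 or 3 h of Cycle 2 brought a call for Mdm4 (as low as 0.0393), and those at 0, 2.5 or 3 h of Cycle 1 and -1, 20 or 25 h of Cycle 2 brought a call for Gadd45a (as low as 0.0357).

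Other genes of the p53 pathway were taken from a list of 55 targets, inhibitors, kinases and partners without the 10 genes, of which 54 were measured. In the 8 windows in order, 6, 5, 6, 7, 9, 9, 11 and 7 of the 54 rose and 2, 18, 18, 13, 11, 9, 11 and 10 fell. Of all genes 3.35%, 9.5%, 12.1%, 11.8%, 12%, 12%, 13.1% and 12.3% rose and 7.55%, 27.4%, 25.2%, 19.8%, 18.7%, 18.6%, 21.3% and 22.7% fell. The median log2 change of the list was -0.10, -0.39, -0.42, -0.26, -0.20, -0.09, -0.12 and -0.13, against -0.15, -0.32, -0.26, -0.17, -0.13, -0.12, -0.14 and -0.17 for all genes, so the list as a whole followed the table. Cdkn1a, the p21 inhibitor of cyclin-dependent kinases and a well-known p53 target, rose in all 8 windows, by 1.23 ± 0.20 at 1 to 1.5 h (adjusted p = 0.00279), 1.66 ± 0.20 at 2 to 3 h (0.000171) and 0.59 to 0.82 thereafter. It was lower by 1.05 ± 0.20 at 24 to 27 h than at 2 to 3 h (adjusted p = 0.00253).

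Among the 10 targets of growth arrest, 4 rose and 0 fell at 1 to 1.5 h, where 3.35% of all genes rose and 7.55% fell. The 4 included the kinase Plk3 (1.91 ± 0.20) and the antiproliferative Btg2 (1.50 ± 0.24). Plk3 was called as a rise in every window. Btg2 was instead called as a fall in each window from 7 to 10 h (-0.82 ± 0.24, adjusted p = 0.0258) to 24 to 27 h (-1.54 ± 0.24, adjusted p = 0.00127). Sesn1, a stress-induced inhibitor of growth signalling, was the deepest called fall at 7 to 10 h (-2.04 ± 0.31) and stood at -1.56 at 24 to 27 h. Of the 13 death targets 1 to 5 rose and 0 to 4 fell per window, against 3.35% to 13.1% rises and 7.55% to 27.4% falls of all genes. The exonuclease Aen rose by 1.13 ± 0.18 at 7 to 10 h and 1.35 ± 0.18 at 24 to 27 h, Bax by 0.94 ± 0.20 at 24 to 27 h, and the death receptor Fas fell by 1.85 and fell by 1.62 in these windows. Of the 9 repair and metabolism targets Xpc, which recognizes damaged bases (-1.08 ± 0.21), and the metabolic regulator Tigar (-0.79 ± 0.20) fell at 1 to 1.5 h. Tigar was later called as a rise in each window from 7 to 10 h to 19 to 23 h (0.72 to 0.85, adjusted p = 0.0096 to 0.018).

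Of the 11 activating kinases and cofactors none rose in any window and 5 fell at 2 to 3 h (27.4% of all genes fell and 9.5% rose there), with a median of -0.93. At 24 to 27 h against 2 to 3 h 6 of these 11 were higher and 0 lower, where 24.3% of all genes were higher. Of the 7 inhibitors at most 1 rose and 2 fell in a window, against 3.35% to 13.1% rises and 7.55% to 27.4% falls of all genes per window. Of the 4 partners of the Gadd45 proteins (Map3k4, Pcna, Cdk1 and Ccnb1) 1 rose at 15 to 18 h, where 12% of all genes rose, and none was called elsewhere.

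**Figure D3:**
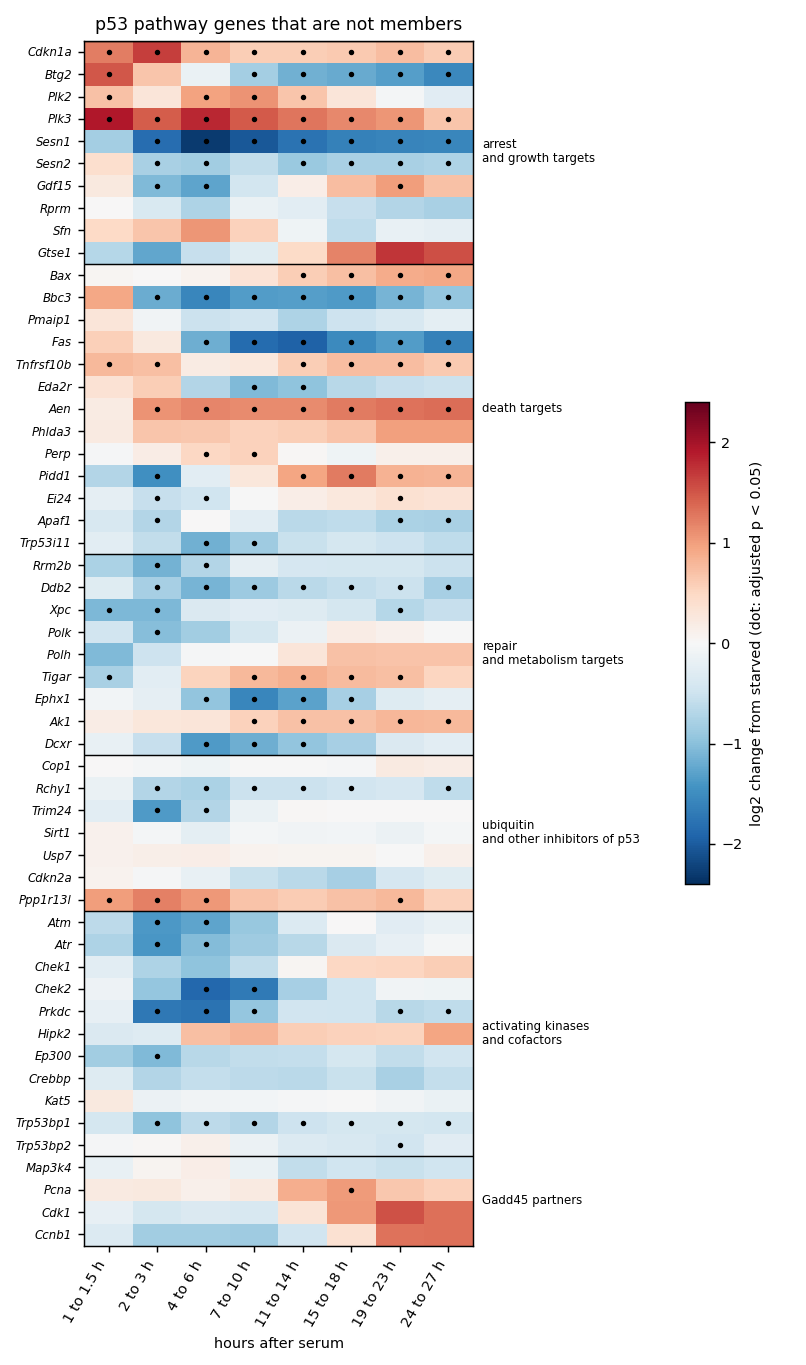
Log2 change from the starved libraries (colour, red higher and blue lower) of the 54 other p53 pathway genes (rows, by group) in 8 windows of hours after serum (columns), with a dot where the adjusted p is under 0.05. Cdkn1a and Plk3 are red with a dot in every window, Sesn1 is blue with a dot from 2 to 3 h on, and the kinases and cofactors hold dots on blue only.

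The last hours of Cycle 1 had no counterpart in Cycle 2 and therefore no replicate, so they are given as a description. Trp53inp1 held 156 to 217 (median 163) in the 5 libraries from 28 to 32 h and 364 at 33 h, and then 1060, 992, 709, 773 and 902 at 34 to 38 h, a 5.05-fold higher mean, near the starved mean of 1184. Mdm4 went from 137 to 188 up to 215 to 382 (1.86-fold), Gadd45a from 67.7 to 81.9 up to 100.5 to 147 (1.68-fold), Ppm1d from 156 to 192 up to 211 to 360.4 (1.58-fold) and Ccng1 from 3398 to 3754 up to 4269 to 5363 (1.34-fold). In these 5 of the 10 genes all 5 later libraries were above all 5 earlier ones, where 16.4% of all genes behaved so. Gadd45g went down from 1656 to 1922 to between 940.0 and 1312 (0.58-fold), the only one of the 10 with all 5 later libraries below (9.23% of all genes). Trp53, Mdm2, Zmat3 and Gadd45b overlapped between these hours. Above 2-fold there was 1 of the 10 genes, against 5.74% of all genes, and below 0.5-fold there were 0, against 1.82%.

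In Cycle 2 the last library, at 27 h, entered the window at 24 to 27 h. It was not scored for its distance from its neighbours, and among the 10 genes it differed most from the 3 libraries before it in Trp53inp1. Without it none of the 10 genes gained or lost a call at 24 to 27 h, or at 24 to 27 h against 2 to 3 h. Trp53inp1 stood at 828 there, after 247, 292 and 255 at 24, 25 and 26 h, a 3.12-fold higher level, and it was the only one of the 10 above 2-fold (2.19% of all genes), with 0 below 0.5-fold (3.08%). Gadd45b was at 786 after 568, 490 and 373 (1.65-fold), Ppm1d at 236 after 150.2, 156 and 158 (1.52-fold), and the other 7 genes lay between 0.79-fold and 1.13-fold. Cycle 1 showed no such step at its own 27 h library, where Trp53inp1 was at 150.5. Some genes of the list moved in the last hours of both Cycles, and those named here were chosen after their values were seen. Bbc3, which encodes the death activator Puma, was 2.26-fold higher at 34 to 38 h of Cycle 1 and 2.92-fold at 27 h of Cycle 2, and Sesn1 was 2.76-fold and 1.68-fold higher. The serum-responsive kinases Plk3 (0.33-fold and 0.16-fold) and Plk2 (0.41-fold and 0.27-fold) were lower in both, as was Btg2 (0.57-fold and 0.43-fold). Cdkn1a was at 1.01-fold and 1.08-fold. Other list genes were higher in the last hours of Cycle 1 but not at 27 h of Cycle 2. Among them were Ep300 (1.99-fold and 0.90-fold), Crebbp (1.79-fold and 0.88-fold), Apaf1 (1.64-fold and 0.94-fold) and Sesn2 (1.55-fold and 0.87-fold). Of the 10 genes, Mdm4 was at 1.86-fold and 0.79-fold. How many of all genes moved alike in both Cycles was not counted. Over the list 14 of 54 genes had all 5 later libraries of Cycle 1 above and 5 below, where 16.4% and 9.23% of all genes did.

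**Figure D4:**
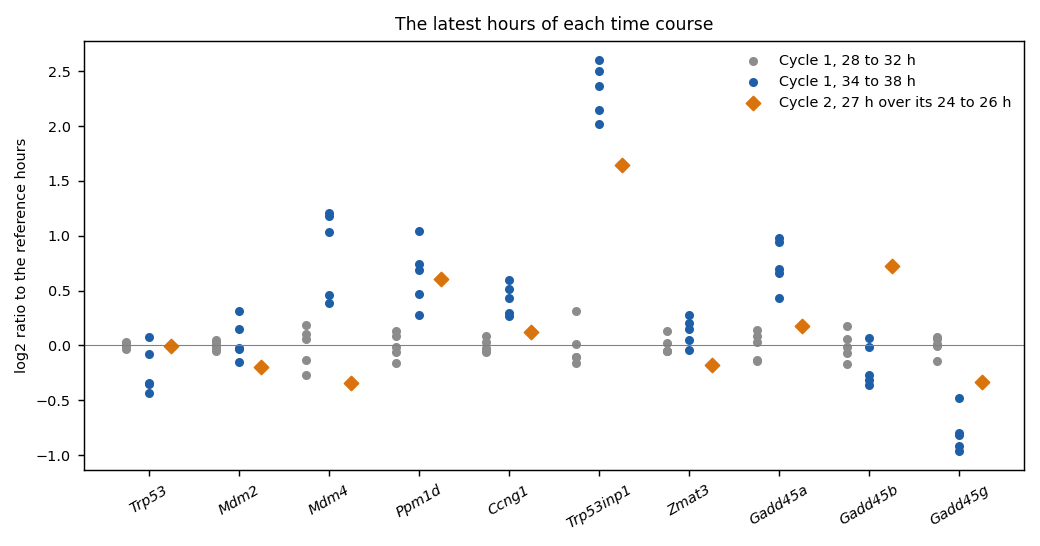
Log2 ratio (vertical axis) of each of the 10 genes (horizontal axis) to the mean of its own reference hours, 1 point per library. Grey and blue points are Cycle 1 at 28 to 32 h and at 34 to 38 h, both over the mean of 28 to 32 h, and orange diamonds are the 27 h library of Cycle 2 over the mean of its 24 to 26 h. Trp53inp1 lies highest in both, and the later points of Mdm4, Ppm1d, Ccng1, Trp53inp1 and Gadd45a lie above all the grey ones.

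The library at 24.5 h of Cycle 1 is visible in several courses as a single point. Trp53inp1 was at 21.0 there, 15 reads as an average over transcripts, between 184 at 24 h and 138 at 25 h. Ccng1 was at 1399 between 3152 and 2851, and Mdm4 at 58.8 between 231 and 109. Trp53 (2016) and Gadd45g (3923) had their highest values of Cycle 1 in it. It entered no test, and none of the peaks given above for shared hours rests on it.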

How the data were processed

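The table gives 1 value per gene and library. Per the labels and the study's methods, CASAVA demultiplexed the libraries, STAR aligned the 50-base single-end reads to mm9, and HOMER counted reads on exons of both strands. The authors then brought all libraries to an equal total, so the deposited unit is a normalized signal. Versions are not given in the sources used here. Rows with several transcripts are averages (3291 genes, Trp53 and Trp53inp1 among them). Of 96 columns, 1, named for 12.5 h without a separate Cycle number, could not be matched by name and was not used, so the library labelled 12.5 h of Cycle 1 was not analysed here. Libraries were grouped by the labelled Cycle and hour.

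Log2(value + 1) was fitted, without a filter, by limma (version 3.58.1, R 4.3.3), with Benjamini-Hochberg adjustment over all 15895 genes. Fold changes on this scale understate those of low genes. Window means per Cycle were taken over the 29 shared hours, and hours of 1 Cycle entered no test. The window fit pooled the spread of a gene over its 18 columns, so its SE is the same in every window. Without the block it treats the columns of 1 Cycle as independent, although hours of 1 Cycle deviated together, as given below. Whole reads, recovered from each library's smallest increment (at least 99.8% of low values were whole), were tested with edgeR 4.0.16 as an alternative. For rows averaged over transcripts, Trp53 and Trp53inp1 among them, the recovered number is a rounded average and not a count of reads. The fits were also run on simulated counts in which the hours of a Cycle did not deviate together. That run therefore cannot show how the fit without the block behaves on the correlated hours of these data.

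The Cycle in the labels marks a shared time course, so the replicate number pairs the libraries. Deviations from the hour means had a median correlation of 0.471 over 406 pairs of hours of 1 Cycle (from -0.20 to 0.91; 9112 genes). The main fits have no block, and the blocked value is printed where it changes a call. The other alternatives were pseudocounts, a minimum mean of 20, TMM, the baseline, limma options, medians, and leaving out libraries or a Cycle.

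The 10 genes, the pathway list and the tests were chosen with earlier results of these data known. Besides the 10, the text names Cdkn1a, in the windows at 1 to 1.5, 7 to 10 and 24 to 27 h up to 2 called list genes with the largest rises and 2 with the largest falls, and the 3 genes most like Trp53 and the 3 most like Mdm2. List genes named for the last hours of the Cycles were chosen after their values were seen. Figures were drawn with matplotlib 3.10.9.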

Additional observations from a re-analysis of the deposited data

Results flagged for a closer look

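The changes of 3 genes differed between times after serum by a test of the difference itself, the contrast of 24 to 27 h with 2 to 3 h in limma. Ccng1 was higher in the later window by 1.40 on the log2 scale (adjusted p = 0.00641; 1.66 in Cycle 1 and 1.14 in Cycle 2). Zmat3 was higher by 0.56 (adjusted p = 0.00552; 0.53 and 0.58). Gadd45g was higher by 1.20 (adjusted p = 0.0301, with 1.05 in Cycle 1 and 1.36 in Cycle 2). The call of Gadd45g was lost under TMM (1.02, adjusted p = 0.0679) and with medians of the hours (1.07, adjusted p = 0.0627). No explanation was weighed for any of the 3 genes.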

How the results depend on the processing

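Of the 31 calls by window, 31 were kept under pseudocounts of 10 and 0.5, a minimum mean value of 20, limma's trend and robust options, the adjustment over all windows together and the replicate block. TMM rescaling kept 27, edgeR 26, the 0 h baseline 29, the -1 h baseline 28, the median of hours 25, and leaving out the 26 h library of Cycle 1 with the 27 h library of Cycle 2, chosen after seeing the data, 29. No call was reversed. The block added 9 calls, which are given beside the genes, and changed no other. With a log2 change above 1 required, the 10 genes had 6 rises, the list 23 rises and 47 falls, all genes 23020 calls over the windows and 3430 for late against early. The number of genes called for late against early was 5 with the minimum mean of 20, 5 with the block and 5 without the 26 h and 27 h libraries, in place of 3, and the number called at any hour was 3 with the 0 h baseline, in place of 5. The cause was not tested. Leaving out single libraries or 1 Cycle gave 0 to 6 genes at any hour (0 to 7959 of all genes), 0 to 11 rises and 0 to 22 falls by window (0 to 39912 calls of all genes), 0 to 64 rises and 0 to 94 falls of the list, and 0 to 4 genes for late against early (0 to 6432 of all genes). The zeros came from fits with 1 Cycle, which rest on 2 starved libraries alone. With Cycle 1 alone 2 rises and 15 falls were called. Mdm4 and Gadd45a rested on under 110 reads in many libraries, each value is a single library, and depth says nothing of the spread between cell preparations.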
